A study of Xenopus laevis with 32 samples.

Results

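The genes pltp.L and pltp.S of the frog Xenopus laevis were followed in amputated tails. They are the homeologs, marked .L and .S after the subgenome that carries them, of the gene for phospholipid transfer protein. They are 2 of 27467 genes listed for both periods of the experiment and 2 of the 21231 genes that had enough counts for testing. The pair was chosen by its levels in these same libraries, because its course over time differed between the periods, so its levels, changes and shares are given as a description with no test.

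Phospholipid transfer protein (PLTP) is, in mammals, a secreted protein that moves phospholipids between lipoprotein particles and remodels high-density lipoprotein. It belongs to a family of lipid-binding proteins with lipopolysaccharide-binding protein (LBP), bactericidal permeability-increasing protein (BPI) and cholesteryl ester transfer protein (CETP). Its gene is known in mammals as a target of the liver X receptors, nuclear receptors that sense oxidized sterols.

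The tails came from 2 developmental periods. Refractory tails were from the phase known for failed regrowth after tail amputation, and regeneration tails, titled as controls, were from a phase of regrowth. Both periods were sampled at 0, 0.5, 6 and 72 h after amputation. All 32 samples were amputated and no strain, transgene or drug is named. There were 4 libraries per group, lettered A to D and described as biological repeats, in 8 groups, and each library pooled the RNA of 20 embryos. The protocol text gives the regenerative stage for every sample, refractory ones included, so the exact stage of the refractory embryos is not settled here. No intact tails of later times were analysed here, so a change from 0 h includes normal development over the same hours. Period was also the division between the 2 deposited tables, and a difference between periods cannot be told apart from any handling that went with it.

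The libraries held 1868302 to 4021785 counts each. Markers of muscle, notochord, spinal cord and epidermis were present in every group, with at most 1 of 21 muscle markers and none of the 12 notochord, 21 neural and 21 epidermal markers at 0 in any group. Levels are given as CPM, counts relative to the library size after TMM scaling. Markers of liver (25 rows), retina and lens (27) and pancreas and gut (15), which are not tail tissues, also had counts in every library. Their sums were 1429 to 3502 CPM, 629 to 1673 CPM and 28.1 to 103 CPM. The source of these counts was not tested. In 4 libraries the summed level of 18 mesenchyme and fin markers, collagen genes among them, was 9572 to 10700 CPM, against 17090 CPM or more in the other 28. These 4 were refractory 72 h A, regeneration 0 h A, regeneration 0.5 h A and regeneration 6 h B. They also had the highest summed levels of the liver markers (3362 to 3502 CPM, against at most 2907 CPM elsewhere). The same held for the retina and lens markers (1467 to 1673 CPM, against at most 1356 CPM elsewhere). All 4, and refractory 0.5 h A, are absent from the authors' normalized tables, and values that shift without these 5 libraries are given both ways.

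In the regeneration period pltp.L was several times higher at 72 h than at 0 h, with smaller changes at 0.5 and 6 h. At 0 h its libraries A to D held 38.0, 54.4, 55.6 and 43.5 CPM. At 0.5 h they held 45.1, 82.1, 68.2 and 71.1 CPM. At 6 h they held 58.1, 52.4, 76.2 and 81.8 CPM, and at 72 h 191, 205, 123 and 173 CPM. Every 72 h library was above every 0 h library, a state that held for 6.2% of all tested genes in that comparison. With all 32 libraries, those of 0.5 and 6 h overlapped those of 0 h. Without 0 h A, 0.5 h A and 6 h B they did not. The ranges were then 43.5 to 55.6 CPM at 0 h, 68.2 to 82.1 CPM at 0.5 h and 58.1 to 81.8 CPM at 6 h. The share of all genes with such gaps was not computed for these libraries. The mean was 173 ± 35.7 CPM at 72 h and 47.9 ± 8.56 CPM at 0 h (SD, n = 4 each), a log2 change of 1.85 ± 0.22 (SE), and 1.74 ± 0.22 in the 27 libraries of the normalized tables. The log2 changes at 0.5 and 6 h were 0.48 ± 0.22 and 0.49 ± 0.22, and 0.53 ± 0.23 and 0.48 ± 0.23 in the 27 libraries.

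In the refractory period the pltp.L levels of the later times overlapped those of 0 h. Libraries A to D held 36.9, 47.7, 39.7 and 64.3 CPM at 0 h. They held 48.4, 44.8, 20.8 and 65.0 CPM at 0.5 h. The 6 h libraries held 40.6, 35.7, 46.0 and 38.3 CPM, and those of 72 h held 57.8, 59.95, 93.6 and 60.5 CPM. No later time was clear of the 0 h libraries. At 72 h the mean was 68.0 ± 17.1 CPM, against 47.2 ± 12.3 CPM at 0 h (SD, n = 4 each), a log2 change of 0.52 ± 0.22 (SE), and library C alone set the top of the 72 h range. The log2 changes were -0.06 ± 0.23 at 0.5 h and -0.23 ± 0.23 at 6 h.

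The homeolog pltp.S was also higher at 72 h in regeneration tails, with a smaller log2 change than pltp.L. At 0 h libraries A to D held 17.6, 42.2, 52.4 and 37.9 CPM. They held 26.5, 61.6, 42.9 and 39.7 CPM at 0.5 h. The 6 h libraries held 50.5, 23.2, 50.9 and 49.2 CPM, and those of 72 h held 97.8, 109.6, 85.5 and 95.1 CPM. The 72 h libraries again lay above all of 0 h, and the 2 earlier times overlapped it. The low values at 0, 0.5 and 6 h belonged to A, A and B, the libraries low in summed mesenchyme markers. At 72 h the mean was 97.0 ± 9.92 CPM, against 37.5 ± 14.6 CPM at 0 h (SD, n = 4 each), a log2 change of 1.38 ± 0.33 (SE), and 1.13 ± 0.24 in the 27 libraries of the normalized tables.

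In refractory tails pltp.S took the opposite course. Libraries A to D held 64.9, 61.8, 129 and 169 CPM at 0 h. They held 66.7, 85.8, 63.6 and 87.3 CPM at 0.5 h. The 6 h libraries held 49.6, 83.1, 62.4 and 78.6 CPM, and those of 72 h held 16.7, 28.9, 36.9 and 29.0 CPM. All 72 h libraries lay below all 0 h libraries, as did those of 3.14% of tested genes. The group at 0 h was wide, with C and D above all other 30 libraries. At 72 h the mean was 27.9 ± 8.32 CPM, against 106 ± 52.2 CPM at 0 h (SD, n = 4 each), a log2 change of -1.93 ± 0.34 (SE), and -1.75 ± 0.25 in 27 libraries. At 0.5 and 6 h the log2 changes were -0.48 ± 0.32 and -0.64 ± 0.32. Without refractory 0 h D, the library with the highest pltp.S level, the log2 change was -0.16 at 0.5 h, -0.30 at 6 h and -1.60 at 72 h.

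**Figure D1:**
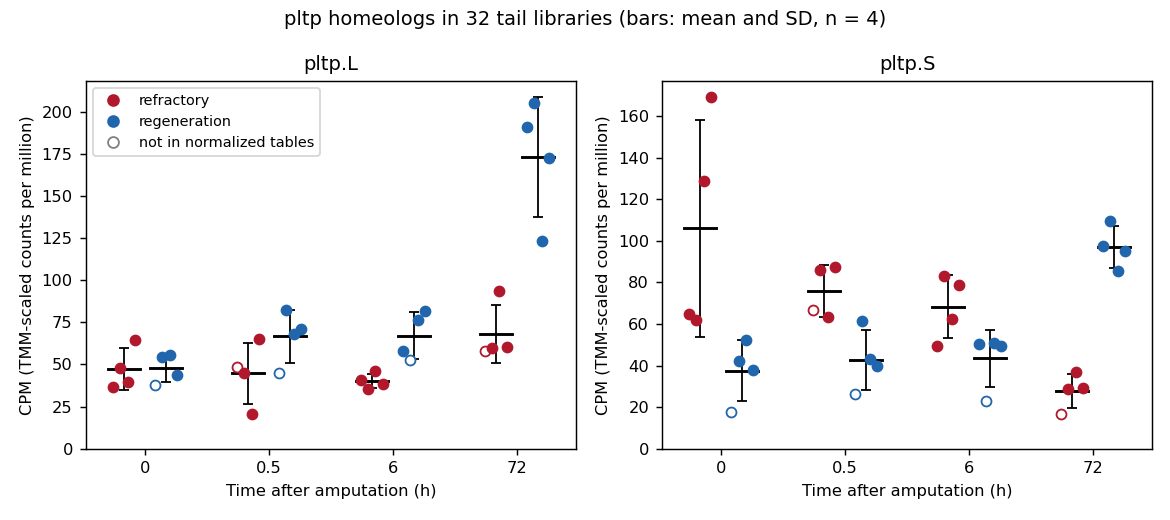
Level of pltp.L (left) and pltp.S (right) in CPM against time after amputation, 1 point per library, refractory in red and regeneration in blue, with bars for the mean and SD of 4 libraries and open points for the 5 libraries absent from the normalized tables. At 72 h the regeneration libraries stand at 123 to 205 CPM for pltp.L and 85.5 to 109.6 CPM for pltp.S, and the refractory libraries at 16.7 to 36.9 CPM for pltp.S.

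Set side by side at each time, the periods differed by homeolog. Before any time had passed, pltp.S stood at 106 ± 52.2 CPM in refractory tails and 37.5 ± 14.6 CPM in regeneration tails, with all refractory libraries above all regeneration libraries, as for 2.25% of tested genes. The same order without overlap held at 0.5 h, with 75.8 ± 12.4 CPM in refractory and 42.7 ± 14.5 CPM in regeneration tails, against 3.64% of tested genes. At 6 h the pltp.S libraries of both periods overlapped, with 68.4 ± 15.4 CPM in refractory and 43.5 ± 13.5 CPM in regeneration tails. At 72 h the order was turned round, with 27.9 ± 8.32 CPM in refractory and 97.0 ± 9.92 CPM in regeneration tails and no overlap (5.21% of tested genes were likewise lower in every refractory library).

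For pltp.L the periods began together, at 47.2 ± 12.3 CPM in refractory and 47.9 ± 8.56 CPM in regeneration tails at 0 h, with overlapping libraries at 0 and 0.5 h. At 0.5 h the overlap rested on regeneration A (45.1 CPM). In the 27 libraries, which lack it and refractory 0.5 h A, there was none. The ranges were then 20.8 to 65.0 CPM in refractory and 68.2 to 82.1 CPM in regeneration tails. The share of all genes with such a gap was not computed for these libraries. By 6 h every refractory library (mean 40.2 ± 4.38 CPM) was below every regeneration library (67.1 ± 14.1 CPM), as for 2.72% of tested genes. At 72 h pltp.L averaged 68.0 ± 17.1 CPM in refractory and 173 ± 35.7 CPM in regeneration tails (SD, n = 4 each), again without overlap. The difference of the changes at 72 h, refractory minus regeneration, was -1.33 ± 0.31 on the log2 scale for pltp.L and -3.30 ± 0.47 for pltp.S (SE). In 27 libraries these differences were -1.16 ± 0.31 and -2.88 ± 0.34. At 6 h they were -0.72 ± 0.32 and -0.86 ± 0.46, and at 0.5 h -0.54 ± 0.32 and -0.68 ± 0.47.

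Ordered by mean, the 8 groups gave different series for the homeologs. For pltp.L the refractory 6 h group was lowest, and each group overlapped the one below it until regeneration 72 h, which stood clear at the top. For pltp.S the order from low to high was refractory 72 h, regeneration 0, 0.5 and 6 h, refractory 6 and 0.5 h, regeneration 72 h and refractory 0 h, and every group overlapped its neighbour in that order.

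Added together, the homeologs gave 152 CPM or less in every refractory library at 0.5, 6 and 72 h. Their sum averaged 95.8 ± 24.1 CPM in refractory tails and 269.97 ± 45.1 CPM in regeneration tails at 72 h, without overlap. The share of homeolog pairs with such a gap in their sum was not computed, so how common it is remains unknown. At 0 h the sum averaged 153 ± 61.2 CPM in refractory tails and 85.4 ± 22.7 CPM in regeneration tails, with overlap, as at 0.5 and 6 h.

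The balance between the homeologs shifted. The share of pltp reads assigned to pltp.L was computed in each library as counts of pltp.L over the counts of both, with exact (Clopper-Pearson) 95% intervals that cover counting error only. The share compares libraries, not the homeologs with each other, since their transcript lengths were not used. How reads that match both homeologs were assigned is not stated, so both levels carry that uncertainty.

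In refractory tails the pltp.L share was 36.3, 43.6, 23.5 and 27.5% in libraries A to D at 0 h. It was 42.1, 34.3, 24.7 and 42.7% at 0.5 h and 45.0, 30.1, 42.5 and 32.7% at 6 h. At 72 h it was 77.5, 67.5, 71.7 and 67.6%, above every earlier refractory library. The interval of a single library was for example 61.3 to 73.3% in refractory 72 h B (168 of 249 reads) and 38.2 to 49.2% in refractory 0 h B (143 of 328 reads). The means were 71.1 ± 4.74% at 72 h and 32.7 ± 8.98% at 0 h (SD, n = 4 each), and 68.9 ± 2.42% at 72 h without library A.

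In regeneration tails the share varied less between times, at 57.4 ± 7.54, 61.4 ± 3.07, 61.3 ± 6.55 and 63.7 ± 3.18% at 0, 0.5, 6 and 72 h (SD, n = 4 each). The highest values at 0 and 6 h, 68.3% in A and 69.3% in B, again belonged to the libraries low in mesenchyme markers. Without them the means were 53.7 ± 2.41% at 0 h and 58.6 ± 4.62% at 6 h.

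The refractory shares therefore lay below all regeneration shares at 0, 0.5 and 6 h and above all of them at 72 h. Among 3894 homeolog pairs with at least 5 CPM in each copy, a lower .L share without overlap was seen for 2.16% at 0 h, 2.39% at 0.5 h and 3.11% at 6 h, and a higher one for 3.11% at 72 h. From 0 to 72 h in refractory tails, a higher share without overlap was seen for 2.59% of pairs. The refractory change of 38.3 points at 72 h was exceeded in size by 4 of the 3894 pairs, where the median pair moved by 3.99 points. The regeneration change of 6.32 points at 72 h was exceeded by 1215 of them. Without regeneration 0 h A that change was 9.96 points, exceeded by 638 pairs, and the shares were 59.0 to 66.1% at 72 h and 51.5 to 56.3% at 0 h. In the same libraries 5.03% of pairs had a higher share without overlap.

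**Figure D2:**
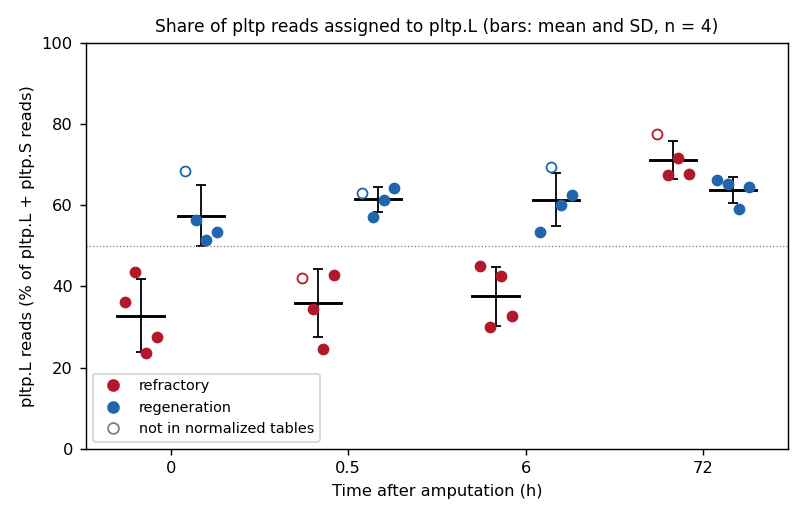
Percent of pltp reads assigned to pltp.L in each library against time after amputation, refractory in red and regeneration in blue, with bars for the mean and SD of 4 libraries. Refractory libraries lie at 23.5 to 45.0% up to 6 h and at 67.5 to 77.5% at 72 h, and regeneration libraries lie at 51.5 to 69.3% throughout.

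The log2 changes restate this shift from the same counts. At refractory 72 h the change of pltp.L minus that of pltp.S was 2.45 on the log2 scale with 32 libraries and 2.33 with 27, and 10 of 3894 pairs (0.257%) had a larger gap in either direction. At regeneration 72 h the gap was 0.47 (0.62 with 27 libraries), a size exceeded by 1056 pairs (27.1%). Homeologs of a typical pair differed by a median of 0.27 in both periods at that time. The position of pltp among these pairs is a description, since pltp was picked with these values known.

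**Figure D3:**
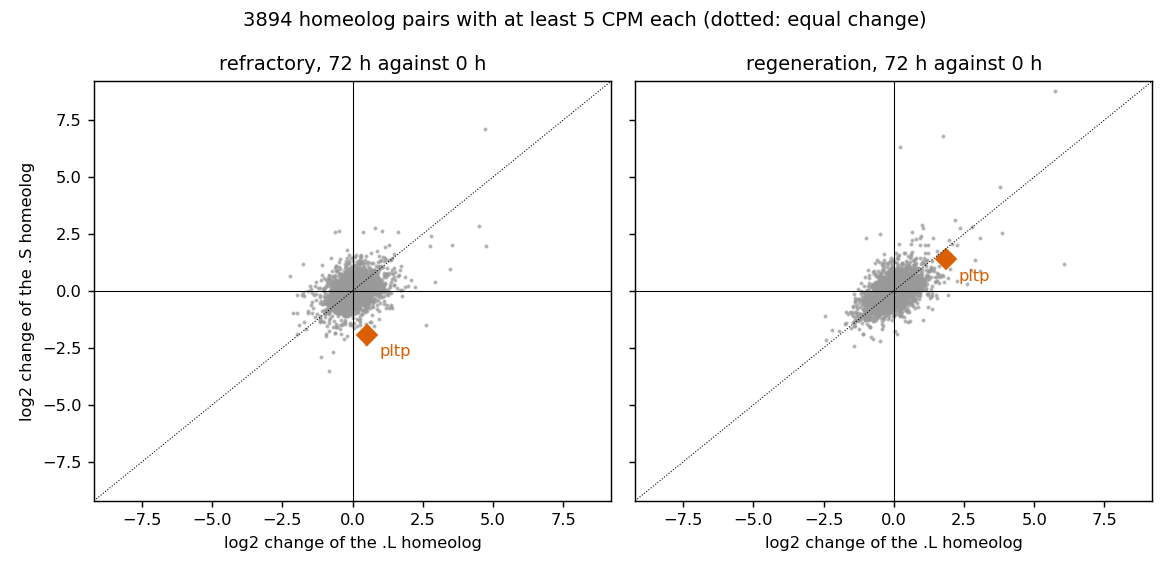
Log2 change from 0 to 72 h of the .S copy against that of the .L copy for 3894 homeolog pairs, in refractory (left) and regeneration tails (right), with pltp as a diamond and equal change as a dotted line. In regeneration tails pltp lies near the dotted line (1.85 and 1.38), and in refractory tails it lies in the lower right part (0.52 and -1.93).

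The highest and lowest pltp.S levels fell in libraries at the ends of the range of summed mesenchyme and fin markers. The markers were 18 rows for fibrillar collagens, decorin, lumican, a PDGF receptor and mesenchymal transcription factors, and all 18 had counts in every group. Their sum ran from 18530 to 37840 CPM at refractory 0 h, 24940 to 31950 at 0.5 h, 17160 to 22280 at 6 h and 10170 to 19450 at 72 h. In regeneration tails it ran from 10700 to 22690 CPM at 0 h, 9919 to 22200 at 0.5 h, 9572 to 20850 at 6 h and 21920 to 25850 at 72 h. The libraries with the 2 highest sums, refractory 0 h D and C, were those with the highest pltp.S levels, and the 4 libraries with the lowest sums had 16.7 to 26.5 CPM of pltp.S. Between these ends, regeneration 72 h B had 109.6 CPM of pltp.S at a sum of 21920 CPM, and regeneration 0 h B had 42.2 CPM at a sum of 22690 CPM. Collagen I genes weighed heavily in the marker sum. At refractory 0 h the sum averaged 27700 CPM, where col1a1.L averaged 12656 CPM, col1a2.L 2865.6 CPM and col1a2.S 1496.6 CPM. Collagen I level and amount of mesenchyme cannot be told apart by it.

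Dividing by this sum, a measure chosen after the values were seen, left the periods apart at 72 h for pltp.S, and overlapping for pltp.L. Per 1000 CPM of markers, pltp.S stood at 1.70 ± 0.32 in refractory and 4.09 ± 0.74 in regeneration tails at 72 h (SD, n = 4 each). At 0 h it stood at 3.69 ± 0.74 in refractory and 1.97 ± 0.35 in regeneration tails. The ranges of this ratio did not overlap at either time, nor between 72 h and 0 h within a period. The share of all tested genes with such gaps was not computed for this ratio. How common they are, for pltp.S here and for pltp.L below, is therefore not known. For pltp.L the ratio was 4.34 ± 1.43 in refractory and 7.33 ± 2.02 in regeneration tails at 72 h, with overlap, and 1.77 ± 0.40 in refractory and 2.69 ± 0.60 in regeneration tails at 0 h. On this ratio the pltp.L libraries of the periods did not overlap at 0 h (at most 2.13 in refractory, at least 2.19 in regeneration tails). Refractory 72 h (3.08 or more) lay above refractory 0 h, and regeneration 72 h (4.81 or more) above regeneration 0 h (3.55 or less). In whole tails, fewer cells of a type and less RNA per cell cannot be told apart. Endothelial and erythrocyte markers, 19 rows, also moved in refractory tails, with sums of 771 to 1099 CPM at 72 h and 3060 to 18730 CPM at 0 h. Sums of 21 muscle markers were lower at 72 h in both periods, at 45240 to 63990 CPM at refractory 72 h and 75570 to 107800 CPM at refractory 0 h, and at 29030 to 44720 CPM at regeneration 72 h and 66060 to 93780 CPM at regeneration 0 h. The part of these marker lists in the pltp values, and in those of the other genes below, was not tested.

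**Figure D4:**
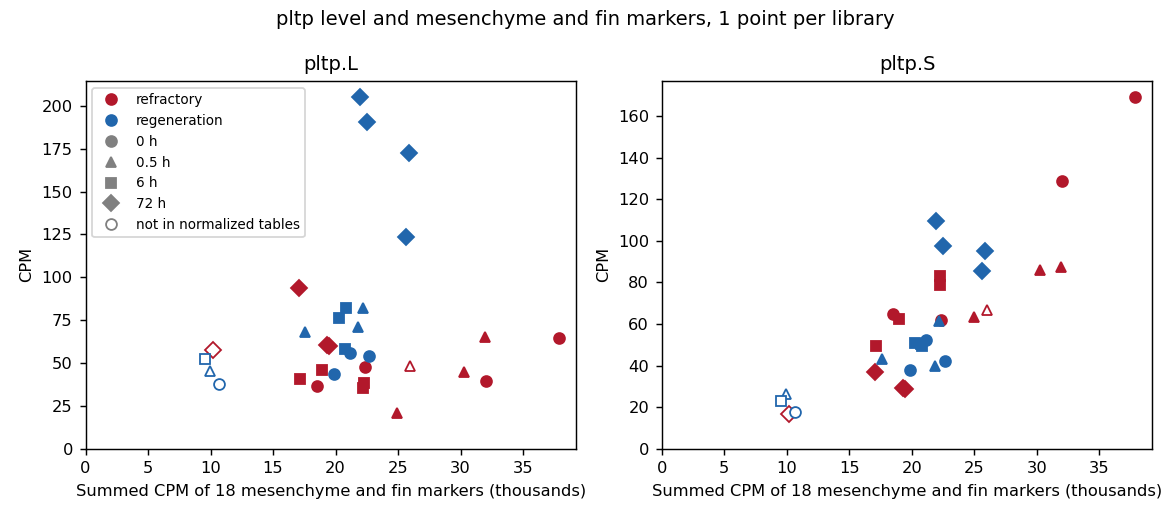
Level of pltp.L (left) and pltp.S (right) in CPM against the summed level of 18 mesenchyme and fin markers in units of 1000 CPM, 1 point per library, with colour for the period, shape for the time and open points for libraries absent from the normalized tables. For pltp.S the libraries run from 16.7 CPM at low sums to 169 CPM at the highest sum, and for pltp.L the 4 regeneration 72 h libraries stand at 123 to 205 CPM at sums of 21920 to 25850 CPM.

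The genes whose levels over the 32 libraries were most like each homeolog were different. Likeness was the Pearson correlation of log2 CPM among 14921 other genes with a mean of at least 5 CPM, and all libraries share the group structure. For pltp.L the 5 highest were frem3.L, which codes for an extracellular matrix protein of the FRAS1 family (r = 0.864), LOC398308 (0.849), the bone morphogenetic protein ligand gene bmp7.1.L (0.842), LOC108700035 (0.829) and the microfibril gene mfap2.S (0.825). The gene frem3.L averaged 153 ± 79.7 CPM in refractory and 606 ± 193 CPM in regeneration tails at 72 h, and 59.1 ± 21.1 CPM in refractory and 85.6 ± 23.97 CPM in regeneration tails at 0 h.

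For pltp.S the 5 highest were rhbg.S, a gene of the Rh family of ammonia transporters (r = 0.882), the collagen I chain genes col1a1.L (0.854), col1a2.S (0.852) and col1a2.L (0.833), and LOC108719814 (0.846). The collagen genes are also members of the mesenchyme list, and all 3 left the highest 5 with 27 libraries and with Spearman correlation, where rhbg.S and LOC108719814 recurred. The gene rhbg.S averaged 28.1 ± 5.27 CPM in refractory and 72.8 ± 8.004 CPM in regeneration tails at 72 h, and 103 ± 40.4 CPM in refractory and 30.6 ± 9.90 CPM in regeneration tails at 0 h. Each homeolog ranked far down the list of the other, with r = 0.249, at rank 3570 for pltp.S in the list of pltp.L and rank 2825 for pltp.L in that of pltp.S.

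Genes that flank pltp in the RefSeq annotation of Xenopus_laevis_v10.1 were examined for similar changes at 72 h. Of the 5 nearest protein-coding genes on each side of each homeolog, 12 of 20 were tested. Beside pltp.L, the lysosomal carboxypeptidase gene ctsa.L rose by 0.63 in regeneration tails (adjusted p = 0.0336) and stood at 0.30 in refractory tails (adjusted p = 0.66), on the log2 scale. On its other side pcif1.L, which codes for a cap methyltransferase of mRNA, was not called in either period, nor was pcif1.S beside pltp.S. The log2 change of pcif1.L was 0.44 ± 0.27 in regeneration and -0.46 ± 0.27 in refractory tails (SE). Its difference, refractory minus regeneration, was -0.90 ± 0.385 (edgeR adjusted p = 0.477), of the same sign as that of pltp.L. For pcif1.S the difference was 0.41 ± 0.50 (edgeR adjusted p = 0.932), of the other sign to that of pltp.S. The troponin C genes tnnc2.L and tnnc2.S, further along, fell in both periods, by 1.18 and 1.30 in refractory and by 1.15 and 0.999 in regeneration tails (adjusted p from 1.18e-06 to 0.00173). The transglutaminase gene tgm3l.1.L was called as higher in regeneration tails (adjusted p = 0.0427), with a wide error (log2 change 5.47 ± 1.66 SE, and 0.26 ± 1.01 in refractory tails). At regeneration 72 h 3 of 7 tested neighbours of pltp.L and 1 of 5 of pltp.S were called, where 3.85% of all tested genes were. At refractory 72 h 1 of 7 and 1 of 5 were, against 1.65% of all. The calls of neighbours were not examined under omission of a library. For none of the 12 neighbours was the difference between the periods' changes at 72 h called (adjusted p from 0.322 upward for those beside pltp.L and from 0.796 for those beside pltp.S), where 0.466% of all tested genes were.

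Other lipid genes were then tested across 9 lists, fitted with all 21231 genes by the quasi-likelihood test of edgeR with Benjamini-Hochberg adjustment. A gene was called at an adjusted p below 0.05. The lists held 261 listed genes besides pltp, and 226 had enough counts for testing. At regeneration 72 h 13 of them were called (6 higher, 7 lower), a share of 5.75% where 3.85% of all tested genes were called (1.62% higher, 2.23% lower). At refractory 72 h 3 were called, 1.33% against 1.65% of all, and 11 in the 27 libraries, 4.85% against 3.48% of all. At refractory 6 h 4 were called, 1.77% against 2.45% of all, with 7 in the 27 libraries, 3.08% against 4.13% of all, and at regeneration 6 h 2, 0.885% against 0.273%. At 0.5 h, 1 was called in regeneration tails, where 0.0612% of all genes were, and 0 in refractory tails, where 0.132% were. With edgeR, 5 of the 226 and 924 of all 21231 tested genes had an unadjusted p under 0.05 at refractory 0.5 h. DESeq2 also called 0 of the lists there.

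Of the pltp family, cetp.L, the gene for the cholesteryl ester carrier, was the only other listed row that matched by symbol, and the symbols lbp, bpi and those of other family members had no matching row. Only exact symbols were matched. A neighbour of pltp.L with a symbol that resembles bpi, bpil100486379.L, was not among the tested genes. The level of cetp.L was 1.43 to 4.17 CPM in group means, too low to compare, and no change was called.

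Apolipoproteins are the protein parts of the particles on which PLTP acts. Of 15 tested genes only clu.L, the gene for clusterin, also called apolipoprotein J, was called, higher at 0.5, 6 and 72 h in regeneration tails and at 72 h in refractory tails. It averaged 45.8 ± 17.2 CPM at refractory 72 h and 2.30 ± 1.86 CPM at refractory 0 h (adjusted p = 4.92e-08), and 17.2 ± 5.80 CPM at regeneration 72 h and 0.248 ± 0.497 CPM at 0 h (adjusted p = 1.73e-09). Its call at regeneration 6 h was lost without 0 h B (adjusted p = 0.0624), and the others held in all 32 omissions of a library. At refractory 0.5 and 6 h its log2 changes were 0.99 ± 0.53 and 1.44 ± 0.52 (SE). The difference between the periods was not called at any time with 32 libraries, and was called at 6 h with 27 (edgeR adjusted p = 0.0352). The regeneration 0 h libraries held only 0 to 0.993 CPM of clu.L. The log2 change at regeneration 0.5 h was thus 4.02 with 32 libraries and 7.15 with 27. The genes of the main protein of high-density lipoprotein stood at 246 ± 75.0 (apoa1.L) and 607 ± 116 CPM (apoa1.S) at refractory 72 h, and at 258 ± 30.5 and 630.2 ± 52.0 CPM at refractory 0 h. In regeneration tails apoa1.L averaged 167 ± 24.6 CPM at 72 h, against 235 ± 76.7 CPM at 0 h, and apoa1.S averaged 409 ± 42.1 CPM at 72 h, against 567 ± 169.7 CPM at 0 h. No change of either was called. The differences between the periods at 72 h, 0.42 for both on the log2 scale, were -0.06 for apoa1.L and 0.06 for apoa1.S with 27 libraries. Refractory 72 h A and regeneration 0 h A, both among the libraries highest in liver markers, are among those left out there. The part of any left-out library in this shift was not tested. The median log2 change of the list at 72 h was -0.07 in refractory and -0.30 in regeneration tails, where that of all genes was 0.02 in each.

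Genes that export lipid to lipoproteins or process the particles showed 1 call among 19 tested. The endothelial lipase gene lipg.L, whose product hydrolyses phospholipids of high-density lipoprotein in mammals, rose at refractory 6 h to 102 ± 20.6 CPM, against 42.0 ± 18.1 CPM at 0 h (log2 change 1.28 ± 0.28 SE, adjusted p = 0.00281). In regeneration tails it stood at 16.2 ± 5.61 CPM at 6 h, against 25.6 ± 5.37 CPM at 0 h (log2 change -0.65, adjusted p = 0.642). The difference between the periods at 6 h was 1.93 ± 0.40 on the log2 scale (adjusted p = 0.0291), where 0.0612% of all tested genes were called. That call was lost in 14 of 32 omissions (adjusted p up to 0.114), those of regeneration 0 h B, C and D, 6 h B, C and D, and 72 h C and D, and of refractory 0 h B, 0.5 h A and C, 6 h B and D, and 72 h C. The cholesterol and phospholipid exporter genes abca1.L and abca1.S were not called in any contrast, at 144 ± 18.9 and 73.0 ± 22.4 CPM at refractory 72 h, 123 ± 7.11 and 61.5 ± 6.06 CPM at refractory 0 h, 134 ± 23.8 and 63.8 ± 2.36 CPM at regeneration 72 h, and 130 ± 8.25 and 56.2 ± 8.30 CPM at regeneration 0 h. The lecithin-cholesterol acyltransferase gene lcat.L was low, at 3.27 to 8.49 CPM in group means.

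Among 20 lipoprotein receptor genes, the low-density lipoprotein receptor gene ldlr.S rose at regeneration 72 h to 56.6 ± 17.9 CPM, against 18.1 ± 7.84 CPM at 0 h (log2 change 1.65 ± 0.38, adjusted p = 0.00701). In refractory tails it had 22.6 ± 10.7 CPM at 72 h, against 26.9 ± 6.68 CPM at 0 h (adjusted p = 0.928). The difference between the periods was -1.90 ± 0.54 and did not pass with edgeR (adjusted p = 0.125) but did with DESeq2 (adjusted p = 0.0279). The other copy ldlr.L, not called, had log2 changes at 72 h of 0.41 in regeneration and -0.03 in refractory tails. The scavenger receptor genes scarb1.L and scarb1.S, which take up lipid from high-density lipoprotein in mammals, were not called.

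Of 51 phospholipid synthesis and remodelling genes, 3 fell at regeneration 72 h. The phosphatidate phosphatase gene lpin1.L fell to 4.28 ± 2.44 CPM, against 16.2 ± 1.15 CPM at 0 h (adjusted p = 0.00705), and in refractory tails to 3.64 ± 4.13 CPM, against 13.9 ± 2.46 CPM (adjusted p = 0.015). Its other copy lpin1.S, not called, had log2 changes at 72 h of 2.025 in regeneration and -0.17 in refractory tails. The cardiolipin synthase gene crls1.S fell by 0.50 (adjusted p = 0.0226) and the acyltransferase gene agpat3.L fell by 0.46 (adjusted p = 0.00759) on the log2 scale in regeneration tails. The other copy agpat3.S, not called, had a log2 change of -0.37 there.

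Of 57 intracellular lipid transfer genes, 3 rose and 2 fell at regeneration 72 h. The gene stard10.L, for a START domain protein that carries phospholipids, rose at 6 h in both periods, at 43.5 ± 8.13 CPM at refractory 6 h and 19.0 ± 8.44 CPM at 0 h, and at 51.2 ± 17.3 CPM at regeneration 6 h and 23.1 ± 6.63 CPM at 0 h (adjusted p = 0.00687 and 0.0351). The oxysterol-binding protein family gene osbpl9.S rose at refractory 6 h to 40.1 ± 7.75 CPM, against 8.35 ± 2.95 CPM at 0 h (adjusted p = 1.34e-05). In regeneration tails it stood at 17.3 ± 6.70 CPM at 6 h, against 10.3 ± 3.02 CPM at 0 h (edgeR adjusted p = 0.682). Its difference between the periods at 6 h was not called (edgeR adjusted p = 0.442). The calls at regeneration 72 h were vps13c.L (0.99 ± 0.27), gm2a.L (0.62 ± 0.16) and psap.L (0.45 ± 0.12) upward and fabp7.L (-1.02 ± 0.21) and stard7.L (-0.61 ± 0.16) downward, on the log2 scale with SE (edgeR adjusted p from 0.000852 for fabp7.L to 0.0167 for vps13c.L). Of these psap.L lies outside the rule of 4 named genes per list.

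Among 30 genes of lipid-sensing nuclear receptors, their cofactors and SREBP factors, both homeologs of ppargc1a, a coactivator gene of mitochondrial biogenesis, fell at regeneration 72 h, by 1.55 (ppargc1a.L, adjusted p = 0.000702) and 0.91 (ppargc1a.S, adjusted p = 0.0124). At refractory 72 h their log2 changes were -0.98 and -0.49 (edgeR adjusted p = 0.118 and 0.436). With 27 libraries the refractory fall of ppargc1a.L was called (edgeR adjusted p = 0.0148). The differences between the periods at 72 h were not called (edgeR adjusted p = 0.853 and 0.86). No row matched nr1h3, the symbol of a liver X receptor. Both homeologs of nr1h2, the symbol of the other liver X receptor, were tested. At 72 h the log2 changes of nr1h2.L and nr1h2.S were 0.22 and 1.58 in refractory tails. In regeneration tails they were 0.09 and 1.52, and none of these changes was called. None of 26 sterol synthesis genes and none of 7 lipopolysaccharide recognition genes was called in any contrast. At regeneration 72 h 22 of the 26 sterol genes had a log2 change above 0 (median 0.49), and at refractory 72 h 13 did (median 0.06). The median of all tested genes was 0.02 in each. Homeologs were counted as separate rows, and the share of all genes above 0 was not computed.

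No lipid gene of these lists was called for a difference between the periods at 72 h with edgeR. There 28 of the 226 and 1748 of all 21231 tested genes had an unadjusted edgeR p under 0.05. DESeq2 called 4 of the lists (ldlr.S, agpat3.L, fabp7.L and vps13c.L), and its count over all genes is given in the last section. At 0.5 h edgeR called 0 of the lists and 0.0% of all genes for such a difference, with 706 genes at an unadjusted p under 0.05, and DESeq2 called 2 genes, neither of them in the lists. Among the 12 tested genes of the panel that was named whatever its values, clu.L alone was called, and the smallest adjusted p of the other 11 over 9 contrasts was 0.255, for lcat.L at regeneration 72 h. With 27 libraries apoe.S, for apolipoprotein E, was called as lower at refractory 6 h (log2 change -0.41 in both fits, edgeR adjusted p = 0.000391, against 0.291 with 32 libraries).

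Single libraries decided some of these calls. Of the 13 calls at regeneration 72 h, those of clu.L, ldlr.S, agpat3.L, fabp7.L and ppargc1a.L held in all 32 omissions. Those of lpin1.L (without 72 h A, adjusted p = 0.0596), psap.L (without 0 h A, 0.0926), gm2a.L (without 72 h A or D, up to 0.0806), stard7.L (without 0 h B or D or 72 h B, up to 0.0706), ppargc1a.S (without 72 h B or D or 0 h D, up to 0.104), vps13c.L (without 0 h C or 72 h C or D, up to 0.0787) and crls1.S (without 0 h B or D or 72 h A, B or D, up to 0.113) did not. The stard10.L call was lost without any library of regeneration 0 or 6 h except 6 h B (adjusted p up to 0.267) and, in refractory tails, without 0 h A, 0 h C or 6 h D (up to 0.0624). At refractory 72 h lpin1.L lost its call without 0 h D or 72 h A, C or D (up to 0.109).

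**Figure D5:**
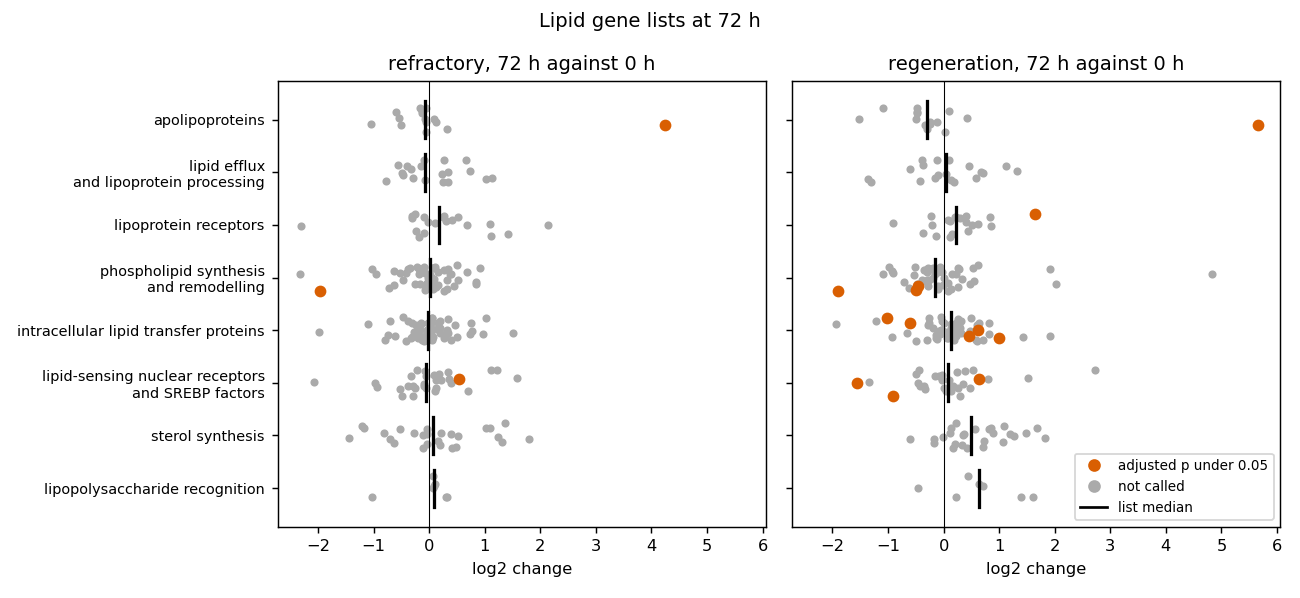
Log2 change from 0 to 72 h of each tested gene in 8 lipid gene lists, in refractory (left) and regeneration tails (right), with orange points for an adjusted p under 0.05 and black lines for list medians. Calls number 3 in refractory and 13 in regeneration tails, and clu.L is the point at 4.25 in refractory and 5.66 in regeneration tails.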

How the data were processed

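Per the labels' protocols, 100 ng of total RNA per library was made into a library (Lexogen SENSE Total RNA-Seq) and read as paired 76 bp reads. The submitters' processing notes list, without settings, HTSeq 0.6.1p1, STAR 2.7.9a, R 4.1.0 and DESeq2 1.32.0. No positions are printed, because the genome build is not given in the sources used here. The 32 libraries held 1868302 to 4021785 counts. The deposited raw tables hold read counts per gene and list 28490 (regeneration) and 28280 (refractory) genes. The authors' normalized tables hold a signal, the counts divided by 1 size factor per library, for 27 libraries, and served only to see which libraries they hold. The 1 emptied line of each table stayed out.

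The 27467 genes in both raw tables were analysed with edgeR 4.0.16 in R 4.3.3 (TMM, filterByExpr, robust quasi-likelihood fit of 8 groups over 32 libraries, 24 residual degrees of freedom, 9 contrasts). The fit and the likeness measure were tested on simulated data. Log2 CPM used a prior count of 2. DESeq2 1.42.0, other scalings, no filter, 27 libraries, single periods, a block for the letters and omission of each library were tried. The pltp pair, the lists and the tests were chosen with earlier results of these data known. Genes named were pltp, a panel of 12 symbols, up to 4 called members per list and contrast, and the 5 genes most like each homeolog. Named outside this rule were psap.L, both nr1h2 rows, lpin1.S, agpat3.S and ldlr.L. The neighbouring genes and the ratio to mesenchyme markers were added after the values were seen. P-values measure the spread between repeats as labelled. Some called list members are counted but not reported here by name.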

Additional observations from a re-analysis of the deposited data

Results flagged for a closer look

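At refractory 72 h, pltp.L in library C stood apart from the other 3 libraries, at 93.6 CPM against 57.8 to 60.5 CPM. At regeneration 6 h, pltp.S in library B stood apart, at 23.2 CPM against 49.2 to 50.9 CPM, and that library had the lowest mesenchyme marker sum of all (9572 CPM). With 24 combinations of group and measure examined, this rule, set at Dixon's 95% critical value, nominally marks about 1 in 20 by chance. The combinations reuse the same 8 groups of libraries, so they are not independent.

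Every refractory library of pltp.S at 72 h was below the refractory 0 h mean and every regeneration library above the regeneration 0 h mean, and the log2 difference of the changes was -3.30. For pltp.L the same held at 6 h, with a log2 difference of -0.72, though its 6 h libraries overlapped those of 0 h in both periods. Neither difference was tested, because the pair was picked for it. The share of all tested genes with libraries so placed about the 0 h means was not computed, so how common this is remains unknown.

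For lipg.L the change at 6 h differed between the periods by 1.93 on the log2 scale (adjusted p = 0.0291 by the edgeR test, 0.0337 with 27 libraries and 0.00281 with DESeq2), with the refractory group higher at 6 h and the regeneration group lower. Its call was lost in 14 of 32 omissions of a library, with adjusted p up to 0.114 without regeneration 0 h B. The part of cell composition in this difference was not tested.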

How the results depend on the processing

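Each group had 4 libraries of 1868302 to 4021785 counts, and pltp shares rest on 158 to 1175 reads per library. The 60 values of each homeolog's log2 change under other settings moved by less than the spread between libraries. Under omission of 1 library the change at 72 h ran from -2.12 to -1.60 (refractory) and 1.14 to 1.58 (regeneration) for pltp.S, and from 0.32 to 0.71 and 1.76 to 1.99 for pltp.L. Its sign turned for pltp.S at regeneration 0.5 h (lowest -0.04) and 6 h (lowest -0.02) and for pltp.L at refractory 0.5 h (highest 0.16).

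With 27 libraries, edgeR called 66, 886 and 747 genes at refractory 0.5, 6 and 72 h, 28 and 323 at regeneration 0.5 and 6 h, and 58 and 178 for the differences at 6 and 72 h, against 28, 520, 350, 13, 58, 13 and 99 with all. The libraries of 1 period alone gave 50 at refractory 0.5 h and 2 and 17 at regeneration 0.5 and 6 h. DESeq2 gave 113 at regeneration 6 h and 2, 40 and 209 for the differences at 0.5, 6 and 72 h. Lipid list members numbered 7 and 11 at refractory 6 and 72 h and 2 for the difference at 6 h with 27 libraries, 5 at refractory 72 h with library totals only, 0 at regeneration 0.5 and 6 h with 1 period, and 4 for the difference at 72 h with DESeq2. The cause of these shifts was not tested.

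Omitting 1 library moved the genes called to 18 to 39, 342 to 585 and 180 to 435 at refractory 0.5, 6 and 72 h. The lowest came without 0 h A, 6 h B and 0 h D, and the highest without regeneration 6 h B. At regeneration 0.5, 6 and 72 h it moved them to 4 to 21, 12 to 229 and 493 to 1003, the lowest without 0 h B, 6 h C and 72 h B and the highest without 0.5 h A and, at 6 and 72 h, without 6 h B. The differences gave 0 to 1 at 0.5 h and 59 to 149 at 72 h, without regeneration 72 h B and 6 h B. Lipid members ranged from 1 to 4 at refractory 72 h, 0 to 2 at regeneration 6 h, and 0 to 1 for the differences at 6 and 72 h.

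The letters A to D gave at most a weak pairing of the libraries. Correlations of same-letter deviations ran from -0.01 to 0.08 in refractory tails (median 0.0139, and -0.00525 for other letters). In regeneration tails they ran from -0.15 to 0.20 (median 0.00577, and 0.000667 for other letters). Of 16 libraries each, 9 refractory and 4 regeneration libraries correlated best with their own letter. The refractory count is above an even spread over 4 letters, and the regeneration count is not. With the letters as a replicate block, 332 genes were called at refractory 72 h, 824 at regeneration 72 h and 114 for the difference, where the block gave 1 lipid member against 0, and the pltp.S difference was -3.32. Of the 5 genes most like pltp.L, 3 recurred with 27 libraries and 1 with Spearman correlation, and of those most like pltp.S, 2 and 2.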
